A study of Mus musculus with 15 samples.

Results

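The genes described here encode the proteins of the mitochondrial ribosome. They were taken from the tables by symbol: every gene called Mrpl or Mrps with a number and at most 1 further letter, which gave 78 of the 56748 genes listed. The rule used no measured value. It leaves out 6 pseudogenes with the ending -ps, and mitoribosomal proteins with other symbols such as Dap3, Ptcd3, Aurkaip1, Chchd1 and Gadd45gip1, which are described separately. Of the 78, 51 belong to the large subunit and 26 to the small subunit. Mrps30 and Mrps18a are counted in the large subunit, where the assembled particle holds them in spite of their names. The remaining gene, Mrps36, carries a ribosomal name but encodes a component of the 2-oxoglutarate dehydrogenase complex.

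RNA was sequenced in 15 libraries of T helper 2 (Th2) cells that had been made in culture from naive CD4+ T cells of the spleens of female mice. Conditional knockout (cKO) cells came from VEC-Cre;Asb2fl/fl mice, in which Cre recombinase driven by the VE-cadherin promoter deletes Asb2; that promoter works in the vessel wall and in early blood progenitors. Control cells came from Asb2fl/fl mice, so floxed Asb2 alleles were common to both genotypes. Cells had been primed for 3 days on anti-CD3ε with anti-CD28, interleukin 2, interleukin 4 and anti-IFNγ and then kept in interleukins 2 and 4. They were either given coated anti-CD3ε (3 µg/ml) with soluble anti-CD28 (2 µg/ml) at day 5 for 24 h (stimulated) or left without it (non-stimulated). There were 4 stimulated and 3 non-stimulated cKO libraries, and 5 stimulated and 3 non-stimulated control libraries; means ± SD below rest on these numbers. The comparisons ask what renewed stimulation of the T cell receptor does to these RNAs in each genotype, and whether the loss of ASB2, the substrate-binding subunit of an E3 ubiquitin ligase, alters it. Neither the number of animals, their age nor pooling is stated in the sources used here, so each p-value sets a difference against the variation among libraries, which may be technical.

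The mitochondrial ribosome translates the few messenger RNAs of the mitochondrial genome, all of which encode subunits of the respiratory chain and of ATP synthase. Its RNAs are transcribed inside the organelle, whereas all its proteins are encoded in the nucleus, made in the cytosol and imported. Activated T cells are known to enlarge their mitochondrial mass and to need mitochondrial translation for proliferation and cytokine production.

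Library totals ran from about 17083700 to 24185300 estimated counts. Levels are given as CPM, counts scaled to a common library size, or as the authors' TPM, which also divides by transcript length and is the scale used to compare genes. Asb2 itself averaged 9.49 ± 0.115 CPM in stimulated cKO cells and 33.5 ± 2.72 CPM in stimulated control cells, and 19.2 ± 5.62 CPM in non-stimulated cKO cells and 36.7 ± 12.2 CPM in non-stimulated control cells. It was called lower in cKO cells after stimulation (log2 fold change -1.82, edgeR adjusted p = 0.000337) and not without it (-0.94, adjusted p = 1). All 8 markers of CD4 T cells were detected, with a summed level of 2523 to 2935 CPM in stimulated cKO, 3042 to 3193 in non-stimulated cKO, 2379 to 2848 in stimulated control and 3116 to 3380 CPM in non-stimulated control cells. Summed markers of myeloid cells were at 0.484 to 2.40 CPM in stimulated libraries and at 10.4 to 20.3 CPM in non-stimulated ones; Adgre1 gave most of it, Lyz2 was at 0 and Csf1r at no more than 0.02 CPM in any group mean. Summed markers of natural killer cells were at 0.243 to 2.03 CPM in stimulated libraries and at 3.10 to 18.2 CPM in non-stimulated ones. The endothelial list was lower in stimulated libraries too, and almost all of it was Pecam1. The part of such cells in the results below was not tested. In bulk RNA, fewer cells of a type and less RNA per cell cannot be told apart. In replicate 3 of stimulated cKO cells, 9.43% of all counts fell on the mitochondrial genome, and 4.36% to 6.24% did so elsewhere; results that rest on it are also given without it.

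All 78 genes passed the filter on low counts and were detected in every library; the lowest estimated count of any of them in any library was 65.6. Per transcript length they spanned an 18.8-fold range, with a median of 23.7 TPM over all libraries. The highest were 4 small proteins of the large subunit. Mrpl33 (ENSMUSG00000106918), with a bacterial counterpart, averaged 179 ± 16.6 TPM in stimulated and 153 ± 19.8 TPM in non-stimulated cKO cells, and 167 ± 26.1 TPM in stimulated and 136 ± 12.3 TPM in non-stimulated control cells. Mrpl52, Mrpl57 and Mrpl54, which have no bacterial counterpart, had means of 113, 83.9 and 83.3 TPM over all libraries. The lowest was Mrpl55 with 8.58 TPM. The median was 22.7 TPM for the large subunit and 30.4 TPM for the small subunit.

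Stimulation raised the RNA of most of these genes in both genotypes. In cKO cells, 49 of 78 were called higher after stimulation and 1 lower, at an adjusted p under 0.05; over all 15619 genes tested, 26.7% were called higher and 27.1% lower. In control cells, 47 of 78 were called higher and none lower, where 25.4% of all genes tested were called higher and 25.2% lower. The median log2 fold change of the 78 was 0.46 in cKO cells (1.37-fold, middle 50% from 0.21 to 0.79) and 0.40 in control cells (1.32-fold, 0.15 to 0.62), beside -0.01 and 0.00 over all genes tested. In each genotype 72 of 78 had a log2 fold change above 0, and 69 had it in both. Without replicate 3 of stimulated cKO cells, 46 were called higher and 1 lower in cKO cells, with a median of 0.44. On the authors' TPM, tested with limma on log2(TPM + 0.1), 36 of 78 were called higher and 1 lower in cKO cells and 51 higher in control cells. On that scale the median of all genes shifted to -0.09 in cKO and 0.14 in control cells, with 16.6% called higher and 21.9% lower in cKO and 24.1% higher and 13.5% lower in control cells; the median of the 78 was 0.38 in cKO and 0.56 in control cells.

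The summed RNA of the 78 genes showed the same shift. It was 2427, 2142, 2425 and 2160 CPM in stimulated cKO libraries, against 1616, 1604 and 1653 CPM in non-stimulated cKO libraries. Control cells had 2472, 2187, 2349, 2004 and 2016 CPM in stimulated libraries, against 1704, 1539 and 1708 CPM in non-stimulated ones. No stimulated library overlapped a non-stimulated one in either genotype, and the ratio of the means was 1.41 in cKO and 1.34 in control cells. Both subunits took part: the ratio for the large subunit was 1.41 in cKO and 1.32 in control cells, and for the small subunit 1.41 in cKO and 1.37 in control cells.

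**Figure D1:**
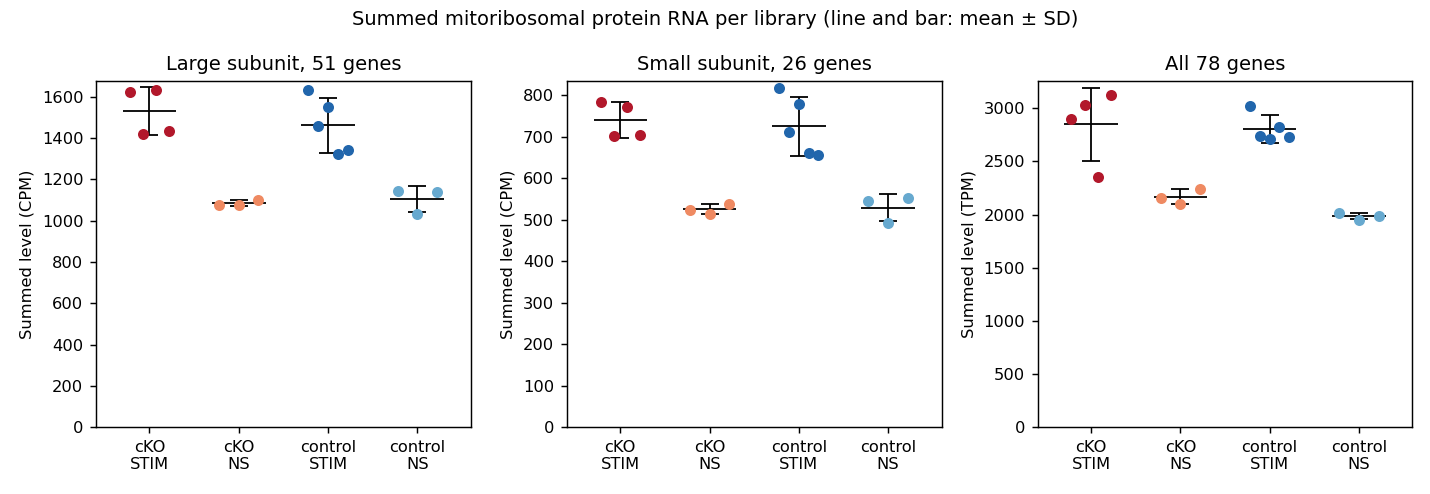
Summed level of the 51 large-subunit genes and of the 26 small-subunit genes in CPM, and of all 78 genes in TPM, in each library (points), with mean ± SD (line and bar); groups run from stimulated (STIM) and non-stimulated (NS) cKO cells to stimulated and non-stimulated control cells. Every stimulated library lies above every non-stimulated library of its genotype in all 3 panels, and replicate 3 of stimulated cKO cells is the lowest stimulated library on the TPM scale, at 2352 TPM.

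The stimulated libraries were not alike in this sum. In control cells, replicates 1 and 3 were high and replicates 4 and 5 low; the summed RNA of cytosolic ribosomal proteins was also highest in replicates 1 and 3 (58544 and 57993 CPM) and lowest in replicates 4 and 5 (45787 and 50629 CPM). Replicate 1 held the highest level of its group for 51 of the 78 genes, and replicate 3 for 22. In cKO cells, replicate 1 was highest for 41 genes and replicate 3 for 26. Replicate 3 of stimulated cKO cells stood at 2425 CPM but at 2352 TPM, against 2898, 3026 and 3120 TPM in replicates 1, 2 and 4. With it, the TPM sum averaged 2849 ± 343 in stimulated and 2168 ± 71.5 in non-stimulated cKO cells (ratio 1.31); without it the stimulated mean was 3014 ± 112 (n = 3, ratio 1.39). The control mean was 2802 ± 129 in stimulated and 1984 ± 30.1 TPM in non-stimulated libraries (ratio 1.41). The part of mitochondrial RNA content in these differences was not tested.

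The genes called higher in both genotypes numbered 44 of 78, where 21.9% of all genes tested were: 29 of 51 in the large subunit, 14 of 26 in the small subunit, and Mrps36. For 35 of the 44, no stimulated library overlapped a non-stimulated one in either genotype; 18.7% of all genes were called higher in both with no such overlap. Taken by genotype, 52 of 78 genes had all stimulated libraries above all non-stimulated ones in cKO cells, where 26.8% of all genes did, and 38 of 78 in control cells, where 23.8% did; none lay wholly below, which 27.2% and 24.2% of all genes did. Rises of at least 1.5-fold were called for 27 of 78 genes in cKO (16.8% of all genes tested), 24 in control cells (15.6%) and 21 in both (13.2%). Rises of at least 2-fold were called for 9 of 78 in cKO (8.49% of all genes tested), for 3 in control cells (7.82%) and for those 3, Mrps25, Mrpl38 and Mrps18b, in both (6.57%). At that size the members' share was near that of all genes in cKO cells and below it in control cells.

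**Figure D2:**
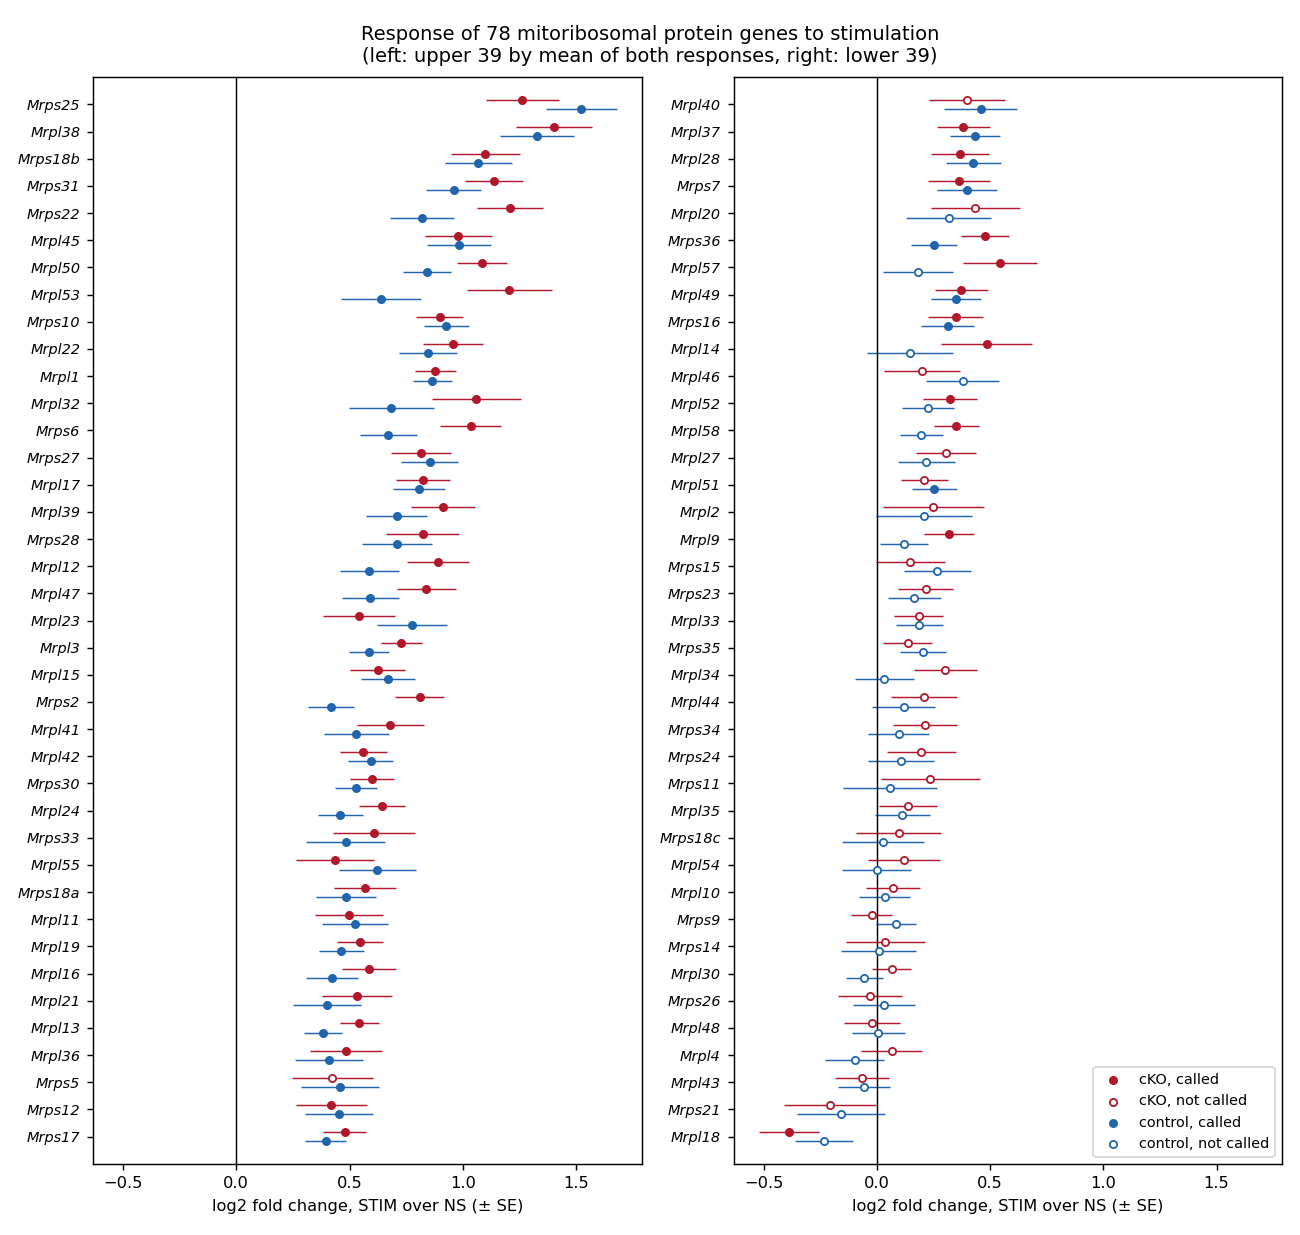
Log2 fold change of each of the 78 genes, stimulated over non-stimulated, with its standard error (bar), in cKO cells (red) and control cells (blue); filled points were called at an adjusted p under 0.05, and genes are ordered by the mean of both responses. Points lie to the right of 0 for 72 of 78 genes in each genotype, from -0.39 for Mrpl18 to 1.40 for Mrpl38 in cKO cells and from -0.23 for Mrpl18 to 1.52 for Mrps25 in control cells.

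By the mean of both responses, the largest rises in the small subunit were those of Mrps25, Mrps18b, Mrps31, Mrps22 and Mrps10. Mrps25 (ENSMUSG00000014551), a protein with no bacterial counterpart, was at 29.4, 24.3, 25.95 and 25.1 CPM in stimulated cKO libraries, against 12.01, 8.87 and 11.8 CPM in non-stimulated ones. In control cells it was at 26.8, 26.9, 36.1, 28.9 and 22.02 CPM in stimulated libraries and 10.97, 10.4 and 8.003 CPM in non-stimulated ones. The groups were far apart in both genotypes, with log2 fold changes of 1.26 ± 0.16 (SE, adjusted p = 3.86e-06) in cKO and 1.52 ± 0.16 (adjusted p = 3.7e-07) in control cells. On GRCm38, 69.8% of its exonic length lies opposite exons of Nr2c2, which was not called in either genotype (log2 fold change -0.06 and -0.07).

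Mrps31 (ENSMUSG00000031533), also without a bacterial counterpart, was at 29.8, 32.4, 42.5 and 32.9 CPM in stimulated cKO libraries, against 14.8, 16.1 and 15.9 CPM in non-stimulated ones. In control libraries it was at 36.3, 32.2, 32.1, 27.9 and 32.8 CPM after stimulation and 17.02, 14.5 and 18.2 CPM without it. Its rise was 1.14 ± 0.13 in cKO (adjusted p = 8.95e-07) and 0.96 ± 0.12 in control cells (adjusted p = 3.94e-06) on the log2 scale. Every stimulated library lay above every non-stimulated one, across genotypes too. Mrps22 (ENSMUSG00000032459), variants of which cause mitochondrial disease in humans, was at 35.1, 34.9, 51.8 and 38.6 CPM in stimulated cKO libraries, against 16.7, 18.2 and 16.97 CPM in non-stimulated ones. In control libraries it was at 44.3, 36.9, 36.9, 30.7 and 39.6 CPM after stimulation and 23.2, 18.2 and 22.6 CPM without it, so the log2 fold change was 1.21 ± 0.15 in cKO and 0.82 ± 0.14 in control cells (adjusted p = 2.45e-06 and 9.16e-05). Replicate 3 of stimulated cKO cells had the highest level of both genes in that group.

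Mrps10 (ENSMUSG00000034729), a counterpart of a bacterial protein of the small subunit's head, rose with the smallest standard error of these 5. It was at 45.4, 45.8, 42.7 and 46.9 CPM in stimulated cKO libraries, against 25.6, 25.7 and 21.5 CPM in non-stimulated ones. Control libraries had 49.9, 43.9, 46.8, 47.7 and 40.7 CPM after stimulation and 21.3, 23.8 and 27.1 CPM without it. The log2 fold changes of 0.90 ± 0.10 in cKO and 0.93 ± 0.10 in control cells differed by less than their standard errors. Mrps6 (ENSMUSG00000039680) was at 25.4, 24.3, 24.4 and 24.2 CPM in stimulated cKO libraries, against 10.6, 14.1 and 11.3 CPM in non-stimulated ones. In control cells the values were 24.3, 22.1, 25.6, 18.7 and 21.9 CPM after stimulation and 12.8, 12.7 and 16.8 CPM without it, and the rise was called in cKO (1.03 ± 0.13) and control cells (0.67 ± 0.13). Part of the exonic length of Mrps6 is shared on the same strand with Gm49711 (19.9%) and with Slc5a3 (10.4%), which was itself called higher in both genotypes (0.48 and 0.44), so reads could be split among them. The other small-subunit genes called in both were Mrps27, Mrps28, Mrps33, Mrps12, Mrps2, Mrps7, Mrps17 and Mrps16.

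In the large subunit the largest rise in both genotypes was that of Mrpl38 (ENSMUSG00000020775), a protein without a bacterial counterpart that sits in the central protuberance. Its level was 39.6, 30.6, 32.6 and 29.9 CPM in stimulated cKO libraries, against 10.8, 15.3 and 11.6 CPM in non-stimulated ones. Control cells had 43.8, 32.4, 35.3, 29.6 and 28.7 CPM in stimulated libraries and 14.5, 10.8 and 15.4 CPM in non-stimulated ones. The lowest stimulated library lay well above the highest non-stimulated one, and the log2 fold change was 1.40 ± 0.17 in cKO (adjusted p = 2.37e-06) and 1.33 ± 0.16 in control cells (adjusted p = 2.92e-06).

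Mrpl45 (ENSMUSG00000018882), which lies at the polypeptide exit tunnel and is related to proteins that tether mitochondrial ribosomes to the inner membrane, was at 56.3, 47.7, 52.5 and 48.9 CPM in stimulated cKO libraries, against 28.9, 23.8 and 25.5 CPM in non-stimulated ones. In control libraries it was at 58.5, 46.96, 60.01, 39.8 and 41.5 CPM after stimulation and 29.8, 22.2 and 22.9 CPM without it. Its response had nearly the same size in both genotypes, 0.98 ± 0.15 in cKO and 0.98 ± 0.14 in control cells (adjusted p = 2.63e-05 and 1.86e-05). Mrpl22 (ENSMUSG00000020514), whose bacterial counterpart lines the same tunnel, was at 25.4, 22.3, 32.3 and 22.4 CPM in stimulated cKO libraries, against 12.4, 14.3 and 12.7 CPM in non-stimulated ones. In control libraries it was at 25.3, 22.2, 23.6, 19.1 and 23.6 CPM after stimulation and 12.6, 12.2 and 13.1 CPM without it; it rose by 0.96 ± 0.13 in cKO and 0.85 ± 0.13 in control cells. So Mrpl45 and Mrpl22 were about 2-fold higher in cKO cells after stimulation (1.97-fold and 1.94-fold), with log2 fold changes of 0.98 and 0.85 in control cells.

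Mrpl12 (ENSMUSG00000039640), the counterpart of the bacterial stalk protein that recruits translation factors, whose human protein also binds the mitochondrial RNA polymerase, was at 81.1, 62.2, 78.3 and 70.1 CPM in stimulated cKO libraries, against 41.2, 38.2 and 38.5 CPM in non-stimulated ones. In control libraries it was at 83.9, 66.5, 68.5, 51.2 and 59.9 CPM after stimulation and 43.4, 40.6 and 47.8 CPM without it. The log2 fold change was 0.89 ± 0.14 in cKO and 0.59 ± 0.13 in control cells (adjusted p = 2.82e-05 and 0.001), with no overlap in either. Mrpl32 (ENSMUSG00000015672), whose precursor is cut by the mitochondrial m-AAA protease before it is built into the ribosome, was at 51.5, 53.5, 94.2 and 55.9 CPM in stimulated cKO libraries, against 32.1, 28.1 and 31.3 CPM in non-stimulated ones. Control libraries had 64.6, 45.5, 62.3, 44.2 and 52.99 CPM after stimulation and 38.3, 29.9 and 32.4 CPM without it. Its rise was 1.06 ± 0.20 in cKO cells, 0.82 without replicate 3 of the stimulated group, and 0.68 ± 0.19 in control cells (adjusted p = 0.000286 and 0.00613).

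Mrpl53 (ENSMUSG00000030037), a low member of the large subunit, was at 11.5, 9.43, 12.5 and 8.23 CPM in stimulated cKO libraries, against 3.36, 5.12 and 5.04 CPM in non-stimulated ones. In control libraries it was at 9.95, 8.05, 8.90, 7.42 and 7.63 CPM after stimulation and 6.16, 5.17 and 4.85 CPM without it. The log2 fold change was 1.21 ± 0.19 in cKO and 0.64 ± 0.18 in control cells (adjusted p = 3.45e-05 and 0.00576). On GRCm38, 88.0% of its exonic length is shared on the same strand with Gm42688, which was not called (-0.47 in cKO and -0.10 in control cells), so the split of reads between them is uncertain. 

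Mrpl41 (ENSMUSG00000036850), whose human protein has also been linked to apoptosis, was at 22.8, 16.4, 24.2 and 18.4 CPM in stimulated cKO libraries, against 11.7, 13.99 and 12.6 CPM in non-stimulated ones. Control libraries had 19.8, 16.5, 19.3, 18.1 and 14.7 CPM after stimulation and 11.6, 11.01 and 14.1 CPM without it. The groups did not overlap in either genotype, and it rose by 0.68 ± 0.15 in cKO and 0.53 ± 0.14 in control cells. Mrps30 (ENSMUSG00000021731), built into the large subunit, was at 41.2, 40.8, 46.9 and 44.7 CPM in stimulated cKO libraries, against 26.8, 30.04 and 28.9 CPM in non-stimulated ones. Control libraries had 46.4, 40.9, 41.005, 41.3 and 44.9 CPM after stimulation and 27.3, 27.9 and 33.8 CPM without it, again with no overlap. Its rise was 0.60 ± 0.10 in cKO and 0.53 ± 0.09 in control cells. The other large-subunit genes called higher in both genotypes were Mrpl1, Mrpl3, Mrpl11, Mrpl13, Mrpl15, Mrpl16, Mrpl17, Mrpl19, Mrpl21, Mrpl23, Mrpl24, Mrpl28, Mrpl36, Mrpl37, Mrpl39, Mrpl42, Mrpl47, Mrpl49, Mrpl50, Mrpl55 and Mrps18a.

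**Figure D3:**
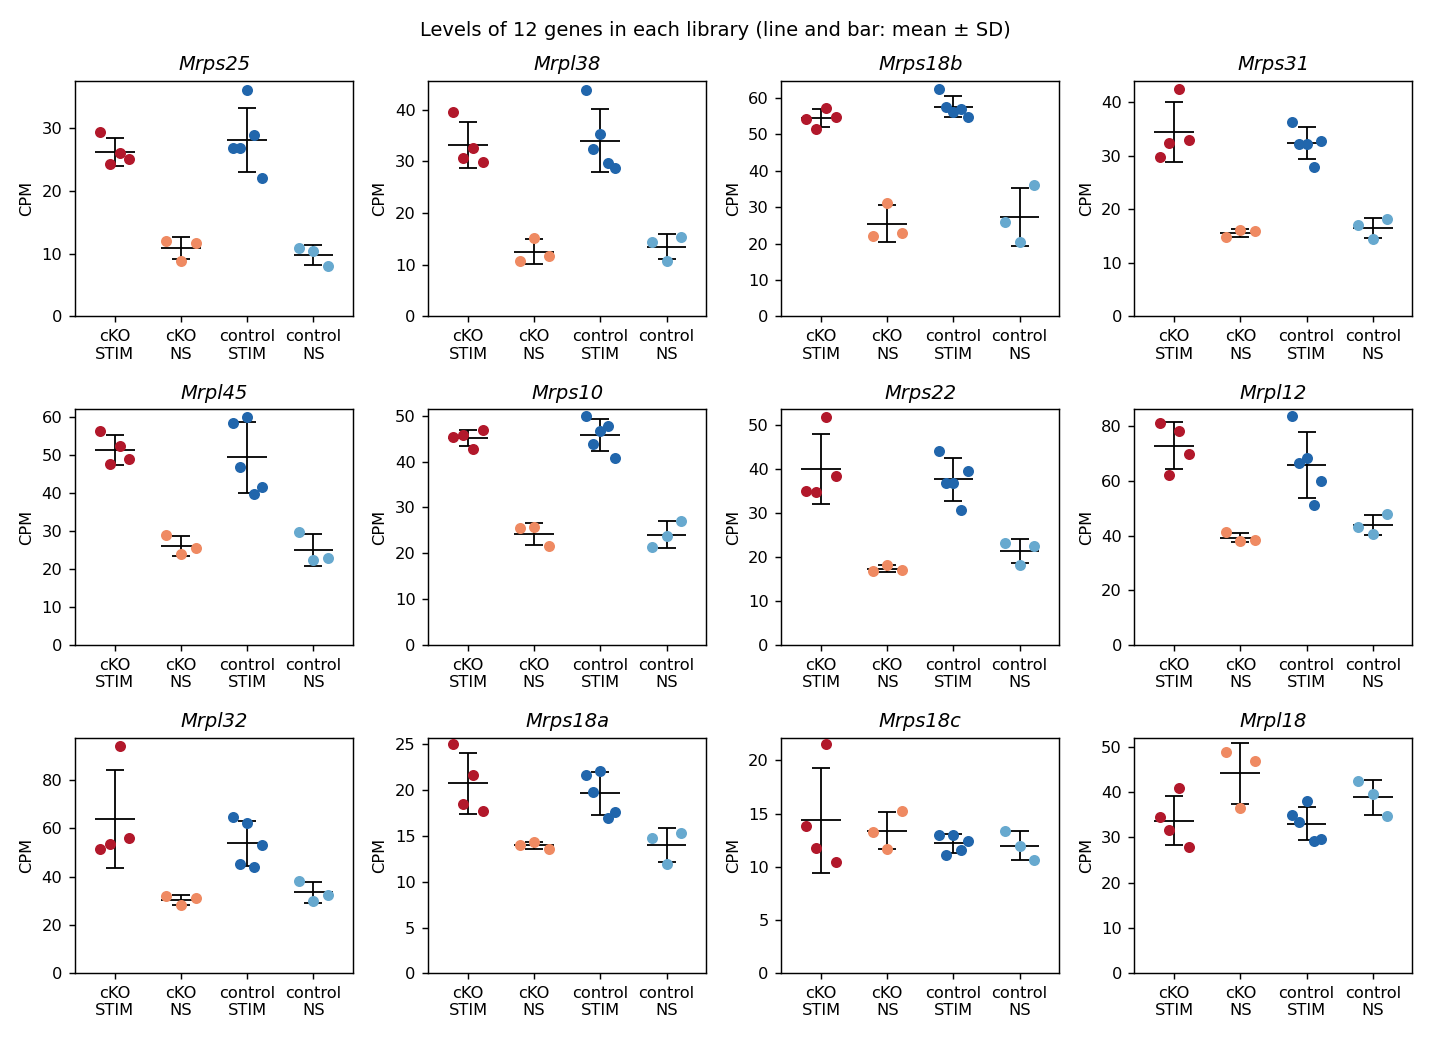
Level in CPM of 12 genes in every library (points), with mean ± SD (line and bar); in each panel the groups run from stimulated and non-stimulated cKO cells to stimulated and non-stimulated control cells. Mrps25, Mrpl38, Mrps18b, Mrps31, Mrpl45, Mrps10, Mrps22, Mrpl12, Mrpl32 and Mrps18a separate by stimulation in both genotypes, and Mrps18c does not. Mrpl18 has a lower mean in stimulated cells with groups that overlap, and was called lower in cKO cells only.

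The genes Mrps18a, Mrps18b and Mrps18c are paralogs that each descend from a bacterial protein of the small subunit, and they took different courses. Mrps18b (ENSMUSG00000024436) was at 54.1, 51.5, 57.3 and 54.8 CPM in stimulated cKO libraries, against 22.1, 31.2 and 22.8 CPM in non-stimulated ones. In control cells it was at 62.4, 57.4, 56.2, 57.05 and 54.7 CPM in stimulated libraries and 25.8, 20.3 and 35.99 CPM in non-stimulated ones, a 2.14-fold rise in cKO and a 2.10-fold rise in control cells (log2 1.0999 ± 0.15 and 1.07 ± 0.15). The antisense gene Gm16279, which covers 30.5% of its exonic length on the other strand, was at no more than 0.411 CPM in any group mean. Mrps18a was at 25.04, 18.5, 21.6 and 17.7 CPM in stimulated cKO libraries, against 14, 14.4 and 13.6 CPM in non-stimulated ones. Control libraries had 21.7, 19.8, 22.1, 16.95 and 17.6 CPM after stimulation and 14.8, 11.9 and 15.4 CPM without it, with no overlap in either genotype, and its rise was called in cKO (0.57 ± 0.14) and in control cells (0.49 ± 0.13). Mrps18c was not called: its log2 fold change was 0.10 ± 0.19 in cKO (adjusted p = 0.689) and 0.03 ± 0.18 in control cells (adjusted p = 0.917). Its level was 13.8, 11.8, 21.5 and 10.5 CPM in stimulated cKO libraries, against 13.2, 11.7 and 15.2 CPM in non-stimulated ones; without replicate 3, the highest of the stimulated libraries, the log2 fold change in cKO was -0.15 and still not called. Control libraries had 12.98, 11.1, 13.002, 11.5 and 12.4 CPM after stimulation and 13.4, 11.9 and 10.7 CPM without it, so the groups overlapped in both genotypes. Of its exonic length, 23.2% is shared on the same strand with Gm43511, so the split of reads between them is uncertain.

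Several members with special roles had smaller changes. Mrpl58 (ENSMUSG00000018858), a peptidyl-tRNA hydrolase built into the large subunit that frees stalled ribosomes, was at 34.2, 28.3, 28.8 and 27.4 CPM in stimulated cKO libraries, against 21.7, 24.5 and 23.6 CPM in non-stimulated ones, and was called higher (0.35 ± 0.10, adjusted p = 0.0065). In control cells it was at 27.1, 27.3, 28.9, 25.9 and 25.6 CPM in stimulated and 22.5, 22.02 and 26.0002 CPM in non-stimulated libraries, with a log2 fold change of 0.20 ± 0.10 that was not called (adjusted p = 0.0976); it was called there in 3 of 25 alternatives, without replicate 3 of non-stimulated control cells and with limma on log2(TPM + 0.1) and on log2(TPM + 1), here the TPM settings (lowest adjusted p 0.0176), and on both TPM settings the call in cKO cells was lost (highest 0.0555). The test of the difference between the responses gave 0.15 ± 0.14 (adjusted p = 0.997). Mrps12 (ENSMUSG00000045948), the counterpart of the bacterial protein at the decoding centre, was at 24.4, 22.8, 20.2 and 18.2 CPM in stimulated cKO libraries, against 16.7, 13.99 and 17.3 CPM in non-stimulated ones. Control libraries had 26.1, 23.3, 24.003, 17.6 and 15.8 CPM after stimulation and 15.2, 14.9 and 16.7 CPM without it, with overlap only there. It rose by 0.42 ± 0.16 in cKO and 0.45 ± 0.15 in control cells (adjusted p = 0.0314 and 0.0182). Its call was lost in cKO cells without replicate 1 or 2 of either cKO group (highest adjusted p 0.128) and in control cells without replicate 1 or 2 of the non-stimulated group (highest 0.0661).

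Mrps36 (ENSMUSG00000061474), the 2-oxoglutarate dehydrogenase component, was at 18.1, 18.3, 19.1 and 19.1 CPM in stimulated cKO libraries, against 13.7, 11.6 and 14.8 CPM in non-stimulated ones. In control cells it was at 21.01, 18.5, 18.1, 17.6 and 17.9 CPM in stimulated libraries and 16.5, 14.9 and 15.4 CPM in non-stimulated ones. It rose by 0.48 ± 0.11 in cKO cells (adjusted p = 0.000962), a call that was lost on both TPM settings (highest adjusted p 0.0737). The rise of 0.25 ± 0.10 in control cells had an adjusted p just under the threshold (0.0447) and was not called in 12 of 25 alternatives (highest adjusted p 0.141). These were the fits without replicate 1, 2 or 3 of non-stimulated control, replicate 1 or 2 of stimulated control, or replicate 1 of non-stimulated cKO cells, with no filter, on only the groups compared, on both TPM settings and with both replicate blocks.

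Not every member rose. The most abundant, Mrpl33, was at 60.8, 59.9, 69.3 and 55.2 CPM in stimulated cKO libraries, against 46.8, 53.2 and 61.7 CPM in non-stimulated ones. Control cells held it at 52.4, 65.2, 55.8, 62.7 and 54.8 CPM after stimulation and 50.3, 52.5 and 50.5 CPM without it, and it was called in neither (0.18 ± 0.11 and 0.19 ± 0.10, adjusted p = 0.156 and 0.139), except in cKO cells without replicate 3 of the non-stimulated group (adjusted p = 0.0423). Mrpl54 was at 33.5, 28.9, 42.99 and 29.9 CPM in stimulated cKO libraries, against 30.7, 26.2 and 36.4 CPM in non-stimulated ones. Control cells held it at 35.6, 30.7, 34.3, 23.03 and 26.6 CPM after stimulation and 33.3, 28.3 and 28.8 CPM without it. The groups overlapped, and it was not called in either genotype, with log2 fold changes of 0.12 in cKO and -0.0015 in control cells.

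Mrpl57 was at 35.5, 26.9, 45.2 and 30.3 CPM in stimulated cKO libraries, against 22.7, 24.6 and 23.4 CPM in non-stimulated ones. Control cells held it at 36.3, 28.8, 34.9, 26.1 and 28.1 CPM after stimulation and 26.98, 22.5 and 31.9 CPM without it. The groups overlapped in control cells alone, and Mrpl57 was called higher in cKO (0.54 ± 0.16) and not in control cells (0.18 ± 0.15), where it was called on both TPM settings (lowest adjusted p 0.0135). Mrpl52 was at 26.98, 21.03, 24.1 and 23.3 CPM in stimulated cKO libraries, against 20.7, 18.5 and 18.01 CPM in non-stimulated ones. Control cells held it at 24.9, 22.9, 26.3, 21.02 and 18.4 CPM after stimulation and 19.2, 19.2 and 19.9 CPM without it. Here too the groups overlapped in control cells alone, and Mrpl52 was called in cKO (0.32 ± 0.12) and not in control cells (0.22 ± 0.12). The call in cKO cells was lost without replicate 2 or 3 of the non-stimulated or replicate 1 of the stimulated group and on both TPM settings (highest adjusted p 0.207). In control cells Mrpl52 was called in 5 of 25 alternatives, without replicate 5 of the stimulated group, on both TPM settings and with both replicate blocks (lowest adjusted p 0.0218). Thus none of the 4 most abundant members was among the largest rises, and across the 78 genes the correlation of log2 mean TPM with the log2 fold change was -0.15 in cKO and -0.20 in control cells (Pearson, a description across genes of the same libraries).

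The 1 gene called lower was Mrpl18 (ENSMUSG00000057388), the counterpart of a bacterial protein that binds 5S ribosomal RNA. It was at 34.4, 31.7, 40.8 and 27.9 CPM in stimulated cKO libraries, against 48.9, 36.4 and 46.9 CPM in non-stimulated ones. Control libraries had it at 34.999, 33.4, 37.95, 29.2 and 29.7 CPM in stimulated and 42.4, 39.4 and 34.7 CPM in non-stimulated libraries. The groups overlapped in both genotypes. It was called lower in cKO (-0.39 ± 0.13, adjusted p = 0.0204) and not in control cells (-0.23 ± 0.13, adjusted p = 0.141), and the call in cKO cells was lost without replicate 1 or 3 of the non-stimulated or replicate 2 or 4 of the stimulated group (highest adjusted p 0.107). Exons of the chaperonin gene Tcp1 lie opposite 10.1% of the exonic length of Mrpl18, and Tcp1 was called higher in both genotypes (0.60 and 0.51).

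The 25 genes called in neither genotype included 14 of the large and 11 of the small subunit, with log2 fold changes from -0.21 to 0.44 in cKO and from -0.16 to 0.38 in control cells. Mrps21 had the lowest value of these in both. Mrpl4, Mrpl10, Mrpl30, Mrpl43, Mrpl48, Mrps9, Mrps14, Mrps18c and Mrps26 lay within 0.1 of 0 in both genotypes. Of the exonic length of Mrpl43, 33.4% lies opposite exons of Twnk, the mitochondrial DNA helicase, which was called higher in both genotypes (0.67 and 0.71). Mrps34 shares 37.0% of its exonic length on the same strand with Nme3, which was called lower in both (-0.89 and -0.83), so its own value of 0.21 in cKO and 0.10 in control cells is uncertain. Mrpl14 and Mrpl9, besides Mrpl52, Mrpl57 and Mrpl58, were called higher in cKO cells only, and Mrpl40, Mrpl51 and Mrps5 in control cells only. For none of these 8 was the difference between the responses called (adjusted p from 0.997 to 1.00). The calls of Mrpl14 and Mrpl9 in cKO and of Mrpl40, Mrpl51 and Mrps5 in control cells were not kept in every alternative. Mrpl14 in cKO and Mrpl51 in control cells were just under the threshold (edgeR adjusted p = 0.0491 and 0.043). Mrpl40 and Mrps5 were just above it in cKO cells (edgeR adjusted p = 0.0533 and 0.0563).

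Members with and without a bacterial counterpart had near shares called, a difference that was not tested. Of the 46 members with a direct bacterial counterpart, 28 were called higher in cKO and 27 in control cells, with medians of 0.44 and 0.40. Of the 29 members found in mitochondria alone, 18 were called higher in cKO and 17 in control cells, with medians of 0.40 and 0.43. The large subunit had 34 of 51 called higher and 1 lower in cKO cells (median 0.49) and 31 higher in control cells (median 0.42). The small subunit had 14 of 26 in cKO (median 0.39) and 15 in control cells (median 0.40).

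The responses ranked alike in both genotypes. Across the 78 genes the log2 fold changes in cKO and control cells had a Pearson r of 0.91 and a Spearman rho of 0.92, from comparisons that share no library, though genes are not independent replicates. The change was larger in cKO than in control cells for 52 of the 78 genes and for 52.9% of all genes tested. On log2(TPM + 0.1), where the median difference between the responses over all genes was -0.21 instead of 0.02, it was larger in cKO cells for 14 of the 78, so no direction is given to this split.

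Promoter sequences were looked at for 3 factors known to drive nuclear genes of mitochondria and for MYC, since these genes moved together. RefSeq promoters on GRCm38.p6 were found for 69 of the 78 genes, and the 250 bases before the start were searched on both strands. The motif of the ETS factors, to which GABP (NRF2) belongs, spelled CCGGAAG, was present for 18 of 69 genes (26.1%), against 15.95% of the genes tested that had a promoter. The core of the NRF1 motif, GCATGCG, was present for 8 of 69 (11.6%), against 6.19%, and the core of the YY1 motif, AAGATGG, for 6 of 69 (8.70%), against 5.22%. The E-box CACGTG, a site of MYC, was present for 5 of 69 (7.25%, Mrpl2, Mrpl20, Mrpl36, Mrpl37 and Mrps18c), against 9.82%. The NRF1 and YY1 cores were shortened after longer forms had been looked at, so their shares are descriptions and were not tested. The E-box reads the same on both strands, matches of the NRF1 core on both strands can overlap, and the ETS motif ends in the letters with which the YY1 core begins. The ETS motif was in 8 of 39 genes called higher in both genotypes (20.5%) and in 6 of 21 called in neither (28.6%), and the NRF1 core in 5 of 39 (12.8%) and 2 of 21 (9.52%). The 140 bases just before the start follow, 5′ to 3′ on the strand of the gene, with the ETS motif and the NRF1 core in capitals. Mrps22 and Mrpl22 are shown as large rises with the ETS motif, Mrpl43 as a gene with that motif that was not called, and Mrpl32, Mrpl39 and Mrpl9 as genes with the NRF1 core and rises of different size.
Mrps22 (chr9:98601680-98601819, minus strand): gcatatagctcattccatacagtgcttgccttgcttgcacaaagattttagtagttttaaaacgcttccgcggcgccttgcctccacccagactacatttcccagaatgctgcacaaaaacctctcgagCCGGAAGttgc
Mrpl22 (chr11:58171524-58171663, plus strand): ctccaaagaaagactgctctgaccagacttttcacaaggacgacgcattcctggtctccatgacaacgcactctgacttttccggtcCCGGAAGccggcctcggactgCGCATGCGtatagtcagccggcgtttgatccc
Mrpl43 (chr19:45006443-45006582, minus strand): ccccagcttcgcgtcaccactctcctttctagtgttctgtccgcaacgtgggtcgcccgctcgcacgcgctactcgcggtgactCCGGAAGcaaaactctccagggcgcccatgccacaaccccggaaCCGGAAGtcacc
Mrpl32 (chr13:14613038-14613177, minus strand): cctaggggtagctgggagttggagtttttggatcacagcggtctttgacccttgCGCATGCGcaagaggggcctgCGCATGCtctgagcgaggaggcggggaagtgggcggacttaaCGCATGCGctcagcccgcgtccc
Mrpl39 (chr16:84735245-84735384, minus strand): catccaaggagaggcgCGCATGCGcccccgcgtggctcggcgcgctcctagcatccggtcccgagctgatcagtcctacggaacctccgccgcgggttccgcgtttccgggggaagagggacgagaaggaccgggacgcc
Mrpl9 (chr3:94443196-94443335, plus strand): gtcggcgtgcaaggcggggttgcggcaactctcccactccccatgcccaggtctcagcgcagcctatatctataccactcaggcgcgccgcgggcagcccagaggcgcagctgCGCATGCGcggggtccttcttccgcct
In Mrps22 the ETS motif lies 5 to 11 bases before the start, beside a rise of 1.21 in cKO and 0.82 in control cells. Mrpl22 holds it 47 to 53 bases before the start and also holds the NRF1 core, with the overlapping matches of both strands 25 to 32 bases before it. Mrpl43 holds the ETS motif at 2 places, 6 to 12 and 50 to 56 bases before the start, and had log2 fold changes of -0.07 ± 0.12 in cKO and -0.06 ± 0.11 in control cells, neither called. Mrpl32 holds the NRF1 core at 3 places, 16 to 23, 59 to 65 and 79 to 86 bases before the start, Mrpl39 at 117 to 124 and Mrpl9 at 20 to 27. Of these, Mrpl32 and Mrpl39 were called higher in both genotypes (Mrpl39 0.91 and 0.71) and Mrpl9 in cKO cells (0.32 ± 0.11) but not in control cells (0.12 ± 0.11). A match describes letters and not binding.

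None of these genes was called between cKO and control cells. In edgeR, 0 of 78 passed after stimulation, 0 of 78 without it and 0 of 78 for the difference between the responses to stimulation, and DESeq2 and limma on log2 TPM also called 0. Over all genes tested, 1 gene (0.00640%), Asb2 itself, was called after stimulation, and 0 in the other 2 comparisons. At an unadjusted p under 0.05 in edgeR, 0 members passed after stimulation (1.81% of all genes), 1 without it (2.57%) and 2 for the difference between responses (3.87%).

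The members' differences between genotypes were small. After stimulation the log2 fold changes of cKO over control ran from -0.10 to 0.31 with a median of 0.04, and without it from -0.32 to 0.19 with a median of -0.02; on the TPM scale with 0.1 added the medians turned round, to -0.01 and 0.12, where the medians of all genes were -0.07 and 0.15. The median standard error was 0.12 after stimulation and 0.14 without it. Without stimulation, 3 genes had all cKO libraries below all control libraries (Mrpl34, Mrps22 and Mrps36), which 3.49% of all genes did, and none lay above, which 4.37% did. After stimulation none was without overlap in either direction, against 0.307% above and 0.352% below over all genes.

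**Figure D4:**
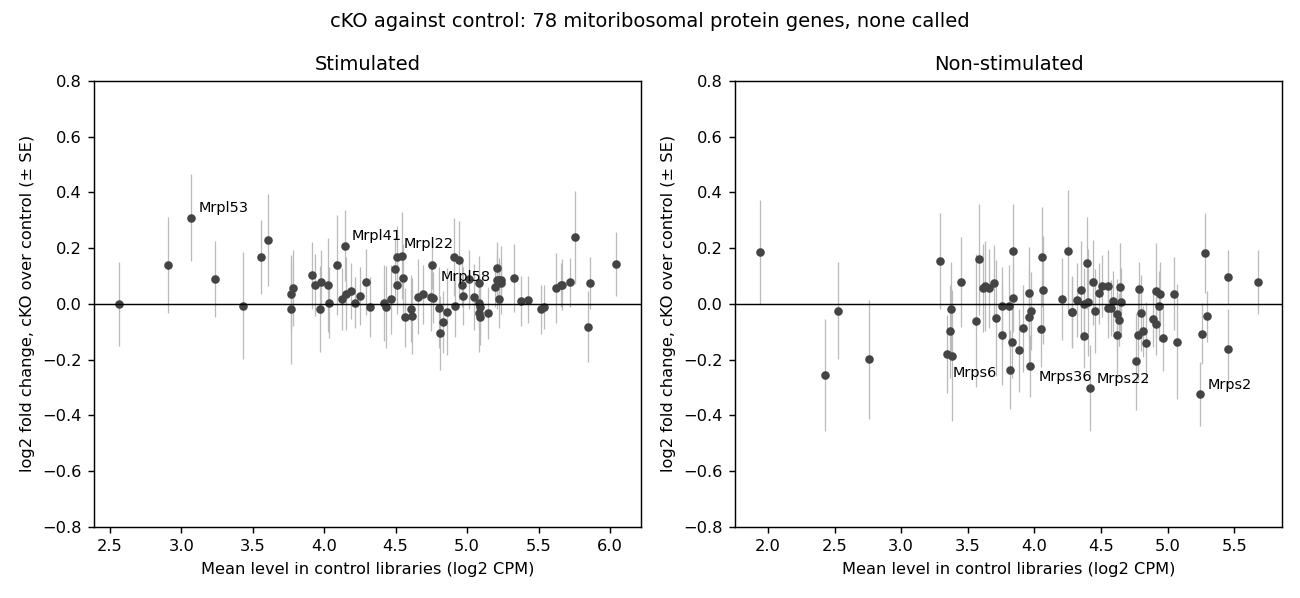
Log2 fold change of cKO over control for each of the 78 genes, with its standard error (bar), against the mean level in control libraries in log2 CPM, in stimulated (left) and non-stimulated cells (right); the 4 genes with the smallest p in each are named. Values scatter around 0, between -0.10 and 0.31 after stimulation and between -0.32 and 0.19 without it, and none was called.

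The smallest p of the genotype comparisons belonged to Mrps2 (ENSMUSG00000035772), a small-subunit protein with a bacterial counterpart. Without stimulation it was at 29.99, 33.8 and 27.2 CPM in cKO libraries, against 39.2, 32.3 and 42.4 CPM in control libraries. The groups overlapped slightly, and the log2 fold change of -0.32 ± 0.11 was not called (edgeR unadjusted p = 0.0112, adjusted p = 1). After stimulation it was at 53.1, 52.2, 49.6 and 57.9 CPM in cKO libraries and 57.6, 48.5, 49.1, 48.2 and 50.2 CPM in control libraries (0.07 ± 0.09). The rise with stimulation was therefore 0.81 in cKO and 0.42 in control cells, a difference of 0.39 ± 0.15 that was not called (edgeR unadjusted p = 0.0157, adjusted p = 0.997).

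After stimulation the smallest p was that of Mrpl53, at 10.4 ± 1.95 CPM in cKO and 8.39 ± 1.04 CPM in control cells, with a log2 fold change of 0.31 ± 0.16 (edgeR unadjusted p = 0.0617). Mrpl41 followed with 0.21 ± 0.13, Mrpl58 with 0.14 ± 0.09 and Mrpl22 with 0.17 ± 0.11; none was called. Without stimulation, Mrps36 (-0.22 ± 0.11), Mrps22 (-0.30 ± 0.15) and Mrps6 (-0.24 ± 0.14) followed Mrps2, all lower in cKO cells and none called. For the difference between responses, Mrpl53 had 0.57 ± 0.25 (edgeR unadjusted p = 0.0388), Mrps6 0.36 ± 0.18 and Mrps22 0.39 ± 0.20, again not called.

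Mitoribosomal proteins with other symbols moved both ways. In the small subunit, Ptcd3, a pentatricopeptide protein, was called higher in cKO (0.56 ± 0.10) and control cells (0.62 ± 0.09), and so was Chchd1 (0.86 ± 0.20 and 0.67 ± 0.20). Dap3, its GTP-binding protein, was at 35.4 ± 1.81 CPM in stimulated and 40.3 ± 3.79 CPM in non-stimulated cKO cells and was not called (-0.18 ± 0.10), and it was called lower in control cells (-0.23 ± 0.10, adjusted p = 0.0485). That call was not kept in every fit that left out 1 library. It was also lost with no filter on low counts, on both TPM settings, with both replicate blocks and on only the groups compared. Aurkaip1 was not called (-0.14 and -0.23). In the large subunit, Gadd45gip1 was called higher in both genotypes (0.61 ± 0.15 and 0.55 ± 0.14).

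The genes that work with the mitochondrial ribosome also rose in part. Of 15 translation factors and partners, 9 were called higher in cKO and 10 in control cells, and none lower; on log2(TPM + 0.1) the counts were 4 and 9. They included Mtif2, which brings the initiator tRNA (0.81 in cKO and 0.59 in control cells), the elongation factors Tufm (0.70 and 0.71) and Gfm1 (0.30 and 0.32), and the ribosome recycling factors Mrrf (0.91 and 0.72) and Gfm2 (0.42 and 0.62). Mtif3 and Oxa1l, which inserts nascent chains into the inner membrane, were not called in either genotype. Of 17 mitochondrial tRNA synthetases, 8 were called higher in cKO and 9 in control cells, led by Rars2 (1.20 and 0.94) and Yars2 (1.00 and 0.88). No synthetase was called lower. On log2(TPM + 0.1), 2 synthetases were called higher in cKO and 6 in control cells.

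Of 27 assembly factors, 16 were called higher and 2 lower in cKO cells, and 11 higher and 2 lower in control cells. On log2(TPM + 0.1), 8 were called higher in cKO and 11 in control cells. Fastkd2, which binds the large ribosomal RNA, was at 27.8 ± 2.39 CPM in stimulated and 12.9 ± 0.172 CPM in non-stimulated cKO cells, and at 27.1 ± 1.68 and 13.1 ± 2.23 CPM in stimulated and non-stimulated control cells. The helicase gene Dhx30 rose by 0.67 ± 0.09 in cKO and 0.64 ± 0.09 in control cells, and the GTPase gene Mtg1 by 0.99 ± 0.18 and 0.80 ± 0.17. The pair that fell in both genotypes was Afg3l2 and Rbfa. Afg3l2, a subunit of the m-AAA protease that cuts the Mrpl32 precursor, was at 133 ± 9.08 CPM in stimulated and 243 ± 28.1 CPM in non-stimulated cKO cells, and at 138 ± 11.6 and 246 ± 26.4 CPM in stimulated and non-stimulated control cells. Its log2 fold change was -0.86 ± 0.10 in cKO and -0.84 ± 0.10 in control cells, opposite to that of Mrpl32. Rbfa, a factor for maturing the small subunit's RNA, changed by -0.78 ± 0.15 and -0.61 ± 0.14. Of 20 genes for mitochondrial transcription and RNA processing, 15 were called higher and 1 lower in cKO cells, and 14 higher in control cells; on log2(TPM + 0.1), 9 were called higher in cKO and 14 in control cells. The 1 lower was Polg2, which the list held although it encodes the accessory subunit of the mitochondrial DNA polymerase (-0.83 ± 0.18 in cKO and, not called, -0.37 ± 0.17 in control cells). Among those that rose were the RNA polymerase Polrmt (0.63 and 0.72), the exoribonuclease Pnpt1 (1.20 and 1.07), Hsd17b10, a subunit of mitochondrial RNase P (1.17 and 0.98), and Lrpprc, which stabilises mitochondrial messenger RNAs (0.48 and 0.62).

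**Figure D5:**
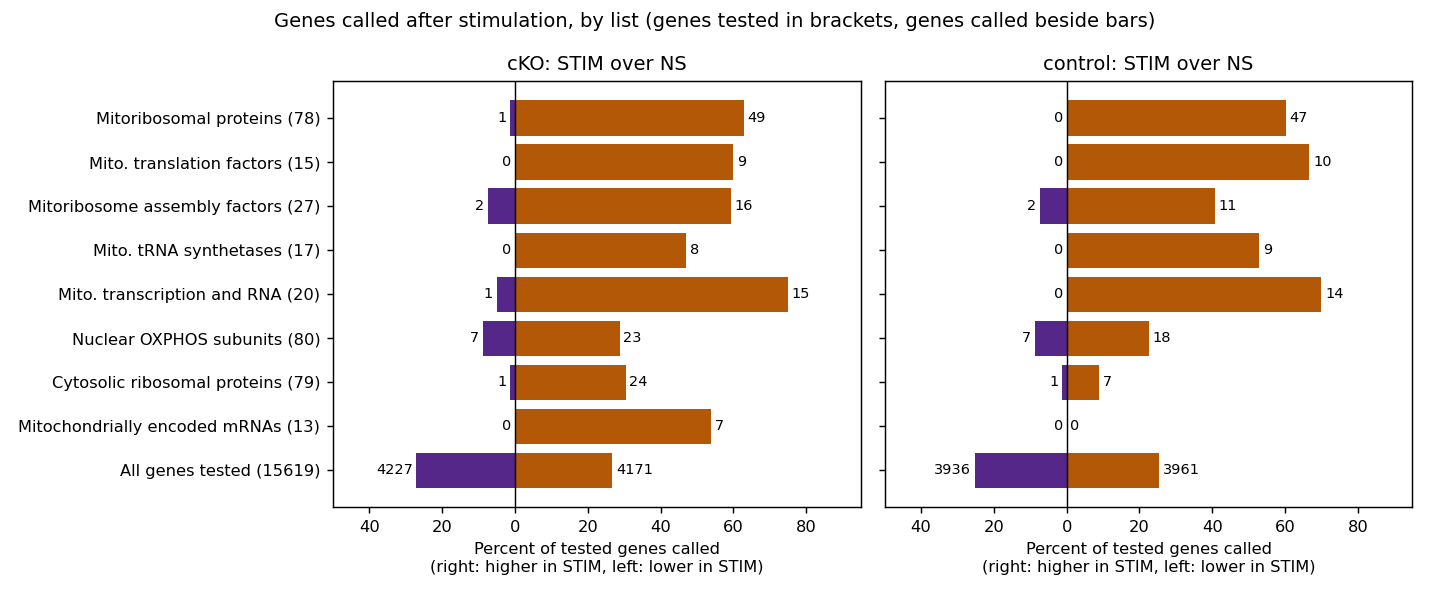
Percent of tested genes called higher (orange, to the right) or lower (purple, to the left) in stimulated than in non-stimulated cells, for each gene list and for all genes tested, in cKO cells (left panel) and control cells (right panel); genes tested stand in brackets and genes called beside the bars. The mitoribosomal proteins show 49 higher and 1 lower in cKO cells and 47 higher and 0 lower in control cells, while all genes tested split almost evenly, 4171 higher and 4227 lower in cKO and 3961 higher and 3936 lower in control cells.

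The cytosolic ribosome and the respiratory chain had smaller shares called higher than the members (62.8% in cKO and 60.3% in control cells). Their shares were 30.4% and 8.86%, and 28.75% and 22.5%, against 26.7% and 25.4% of all genes tested. Some lists above had shares near or above the members': translation factors 60% and 66.7%, mitochondrial transcription and RNA 75% and 70%. Assembly factors had 59.3% and 40.7%, and tRNA synthetases 47.1% and 52.9%. Of 79 cytosolic ribosomal protein genes tested, 24 were called higher and 1 lower in cKO cells (median 0.25), and 7 higher and 1 lower in control cells (median 0.02). In cKO cells the median was 0.10, with 18 called higher, without replicate 3 of the stimulated group, and the count ran from 16 without replicate 3 of non-stimulated to 38 without replicate 2 of stimulated cKO cells. In control cells it ran from 3 without replicate 2 of the non-stimulated group to 11 without replicate 3 of stimulated cKO cells. The difference between the responses was called for none of the 79 (lowest edgeR adjusted p = 0.997). Of 80 nuclear genes for respiratory chain and ATP synthase subunits, 23 were called higher and 7 lower in cKO cells (median 0.11), and 18 higher and 7 lower in control cells (median 0.10); without replicate 2 of non-stimulated control cells 9 were called higher there. On log2(TPM + 0.1), 14 cytosolic ribosomal protein genes were called higher in cKO and 18 in control cells, and 14 and 25 of the respiratory chain genes. The members' counts stand beside those of the other lists as a description, since the difference between the lists was not tested.

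The messenger RNAs that these ribosomes translate are made from the mitochondrial genome. Of 13, 7 were called higher in stimulated cKO cells (median 0.56), among them mt-Co1 (0.67 ± 0.17) and mt-Co3 (0.73 ± 0.17), subunits of cytochrome c oxidase, and none was called in control cells (median 0.17; mt-Co1 0.17 ± 0.16 and mt-Co3 0.15 ± 0.16). Without replicate 3 of stimulated cKO cells, the library with the most mitochondrial RNA, 6 were called higher in cKO cells with a median of 0.26, and 4 in control cells. The count in cKO cells was 4 without replicate 2 of non-stimulated cKO cells, and on log2(TPM + 0.1) it was 4 in cKO and 3 in control cells. The difference between the responses was called for none of the 13 (lowest edgeR adjusted p = 0.997). The ribosomal RNAs mt-Rnr1 (0.50 ± 0.38 in cKO and -0.12 ± 0.36 in control cells) and mt-Rnr2 (1.05 ± 0.42 and 0.11 ± 0.39) were not called, though the adjusted p of mt-Rnr2 in cKO cells was just above the threshold (0.0509) and 1 of the pair was called higher there in 8 of 10 alternatives on all libraries. Without replicate 3 of stimulated cKO cells neither was called, and their median log2 fold change in cKO cells was 0.30 instead of 0.77. The libraries had been depleted of ribosomal RNA.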

How the data were processed

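The files hold, for 15 libraries of stranded total RNA depleted of ribosomal RNA per the labels' protocols, gene tables with the estimated counts and the TPM values that the authors deposited. The submitters' processing notes name cutadapt 3.4, STAR 2.7.9a, Salmon 1.10.1 and the build GRCm39; their roles, the annotation release and the strand setting are not given in the sources used here. The estimated counts were rounded before testing. The filter was edgeR's filterByExpr (15619 of 56748 genes kept, with at least 99.9% of counts in each library); libraries were scaled by TMM and tested with edgeR 4.0.16 in R 4.3.3 (robust quasi-likelihood fit, a mean for each of the 4 groups over all 15 libraries), with Benjamini-Hochberg adjustment over all genes tested. A gene is called at an adjusted p under 0.05. The standard error of a log2 fold change is its size divided by the square root of the F statistic. CPM in the text is edgeR's, on TMM-scaled library sizes; TPM is the deposited value. The biological coefficient of variation was 15.4%.

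Groups were taken from the labels. The labels do not say whether replicate numbers pair the libraries, and the main fit did not pair them. Deviations of same-numbered stimulated and non-stimulated libraries correlated at 0.09, 0.11 and 0.14 in cKO cells and at 0.13, -0.15 and -0.24 in control cells. Those of unlike-numbered libraries ran from -0.18 to 0.15 in cKO and from -0.25 to 0.15 in control cells. With so few libraries these values cannot decide whether the numbers mark pairs. In each of the 22 pairs of replicates, counts differed beyond sampling noise (chi-square per degree of freedom of at least 11.7). Alternatives were DESeq2 1.42.0, limma 3.58.1 on log2(TPM + 0.1) and log2(TPM + 1), RLE scaling, other filters, a fit without robust dispersion, fits on the compared groups only, replicate blocks and leaving out each library. The tests were tried on simulated data.

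Genes with values per library were the 4 with the highest TPM, the 6 with the largest called rise and fall in each stimulation comparison, the 4 with the smallest p in each genotype comparison, the Mrps18 paralogs and 6 genes taken for their role; other genes are named after their values were seen. The members and lists were chosen with earlier results of these data known, and the counts of the other lists under alternatives were added after seeing the data. Exon overlaps come from GENCODE vM21 and promoters from RefSeq, both on GRCm38, matched by gene. The letters searched for NRF1 and YY1 were shortened after longer forms had been looked at.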

Additional observations from a re-analysis of the deposited data

Results flagged for a closer look

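Dixon's criterion was applied to 56 sets of values from 4 or 5 stimulated libraries. These were 25 named genes, the summed CPM and TPM of the members and the mitochondrial percent of counts, in each genotype. By it, 4 sets held a library that stood apart from the rest, which chance alone gives in about 1 in 20 groups. The mitochondrial 9.43% of replicate 3 of stimulated cKO cells was not among them. Mrpl32 was at 94.2 CPM in replicate 3 of stimulated cKO cells, against 51.5 to 55.9 CPM in the other 3. Mrps6 was at 25.4 CPM in replicate 1 of stimulated cKO cells, against 24.2 to 24.4 CPM in the others, a difference of small size. In replicate 1 of stimulated control cells, Mrps2 was at 57.6 CPM, against 48.2 to 50.2 CPM in the other 4, and Mrps36 was at 21.0 CPM, against 17.6 to 18.5 CPM. That library held the highest level of its group for 51 of the 78 genes, and its part in the results was measured by leaving it out.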

How the results depend on the processing

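The rise of these genes with stimulation kept its direction under every alternative run. In cKO cells, 36 (both TPM settings) to 56 (replicate block) were called higher across the alternatives on all libraries, against 49, and in control cells 44 (only the groups compared) to 54 (replicate block), against 47. Leaving out 1 library gave 41 to 55 called higher, 0 to 1 lower and a median of 0.36 to 0.52 in cKO cells, and 37 to 49 higher, 0 to 0 lower and a median of 0.36 to 0.44 in control cells; the counts of genotype and interaction calls were 0 to 0. Without replicate 1, 3 of non-stimulated or 2, 4 of stimulated cKO cells the fall of Mrpl18 was not called. Called higher in all 26 settings were 33 genes in cKO, 35 in control and 31 in both. The median in control cells was 0.56 under limma on log2(TPM + 0.1).

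The replicate block, on numbers that the labels do not say pair the libraries, gave 56 called higher in cKO and 54 in control cells, with medians of 0.52 and 0.47. The block within genotype gave 55 and 51 higher and 0 lower in cKO cells, with medians of 0.51 and 0.50. For named genes, 1495 alternative values kept their side of the threshold, 32 lost the call and 11 gained it. None changed sign where the main or the alternative value was called. Values that were not called could change sign, as for Mrps18c in cKO cells (0.10, and -0.15 at the lowest).

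On log2(TPM + 0.1), calls in cKO cells were 14 for cytosolic ribosomal proteins, 14 for the respiratory chain, 4 for translation factors, 8 for assembly factors, 2 for tRNA synthetases, 9 for mitochondrial transcription and RNA and 4 for mitochondrial messenger RNAs; in control cells they were 18 for cytosolic ribosomal proteins and 3 for mitochondrial messenger RNAs. The replicate block gave 13 cytosolic ribosomal proteins in control cells. In 8 of 10 alternatives on all libraries, DESeq2 among them, 1 mitochondrial ribosomal RNA was called higher in cKO cells. The cause of these differences was not tested. With 3 non-stimulated libraries per genotype, changes near the standard errors of about 0.13 in single genes were not resolved.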

Other observations

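Regulators linked to genes of mitochondria changed in part with stimulation. Of 9 tested, 4 were called higher and 1 lower in cKO cells, and 3 higher and 1 lower in control cells. Myc, a transcription factor that drives ribosome and mitochondrial biogenesis, rose by 1.78 ± 0.22 in cKO and 1.54 ± 0.21 in control cells on the log2 scale, with 299 ± 39.2 CPM in stimulated and 87.1 ± 18.4 CPM in non-stimulated cKO cells, and 305 ± 68.9 and 105 ± 27.6 CPM in stimulated and non-stimulated control cells. Pprc1, a coactivator related to PGC-1, rose by 0.72 ± 0.14 in cKO and 0.53 ± 0.13 in control cells, and Tfe3 by 0.63 ± 0.13 and 0.44 ± 0.13. Gabpb1, a subunit of GABP, was called higher in cKO (0.37 ± 0.11) and not in control cells (0.22 ± 0.11). Yy1 was called lower in both (-0.18 ± 0.07 and -0.26 ± 0.07), though the call in cKO cells was lost in several alternatives, among them those without replicate 3 of the stimulated group, with no filter on low counts, with the replicate block and on only the groups compared. Neither Nrf1 (0.13 and 0.14) nor Gabpa (0.20 and -0.01) was called. On log2(TPM + 0.1), 2 were called higher in cKO and 5 in control cells and none lower. Ppargc1a did not pass the filter on low counts.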
